A study of Mus musculus with 16 samples.

Results

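Cells carry a small set of proteins that recognise double-stranded RNA, and 9 genes of that set were followed here: Ifih1, Ddx58 (named Rigi in newer releases), Dhx58, Tlr3 and Zbp1, which encode receptors, Eif2ak2, a kinase, Mavs and Irf3, which relay the signal, and Adar, which edits double-stranded RNA. They were chosen by symbol, from what their products are known to do and with earlier results of these data known. All 9 were found among the 55414 gene IDs of the deposited tables. The tables hold whole-testis RNA-seq from mice at postnatal day 14 (P14) or 16 (P16). The conditional knockout (cKO) of Ythdc2, an RNA helicase needed in meiotic germ cells, was compared with a control and with a second control type, the Cre control. There were 2 control, 2 Cre control and 3 cKO libraries at P14 and 2 control, 4 Cre control and 3 cKO libraries at P16. Per the labels, mice of all 3 genotype groups received tamoxifen, which activates an inducible Cre, on P12 and P13 (10 mg per ml). The labels give neither the Cre driver, nor the alleles carried by the control types, nor whether replicates were separate animals, so p-values measure the spread between these libraries.

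Double-stranded RNA that is long or unmodified is treated by mammalian cells as a sign of infection. The helicases MDA5 (Ifih1) and RIG-I (Ddx58) bind it in the cytoplasm and pass the signal through MAVS to IRF3. TLR3 senses such RNA in endosomes. IRF3 switches on type I interferon. Interferon in turn raises the transcription of many of these same genes, PKR (Eif2ak2) halts translation by phosphorylating eIF2-alpha, and ADAR1 (Adar) converts adenosine to inosine in the cell's own duplexes and so keeps them from being sensed.

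Ribosomal RNA was removed with one of 2 kits. The 8 libraries of the first kit (Ribo-Zero) held 22220565 to 27531529 reads on genes, and those of the second (NEBNext) 14494867 to 23200252. All control libraries and cKO libraries 1 and 2 of each stage used the first kit. All Cre controls and cKO library 3 of each stage used the second. No sequencing run held libraries of both kits, so a difference between kits is also a difference between runs. No replicate pair agreed within sampling noise, with a chi-square per gene of at least 2.36 within a kit and of at least 220.7 between kits. Values below are the deposited normalized counts, comparable within a table only. Ythdc2 itself stood at 2666 and 2609 in the P16 control libraries and at 501.7 and 540.6 in cKO, and in each of the 4 tables its cKO values were all under its control values. Markers of the labelled tissue were present, with a summed value of 60981 to 75479 for 9 spermatocyte markers and 20494 to 25454 for 8 Sertoli cell markers in the P16 first-kit libraries.

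At P16, 7 of the 9 genes rose in cKO against control and none fell. A gene is termed called at a limma adjusted p under 0.05 over all genes tested. Of the 17986 genes tested, 38.6% were called, 18.6% higher and 19.9% lower in cKO. The 9 genes had a median log2 change of 0.72, against -0.00050 over all genes tested. The increases were largest in the receptors Zbp1, Ddx58, Ifih1 and Tlr3 and in the kinase gene Eif2ak2, and small in Adar and Mavs. Testis RNA was sequenced in bulk, so fewer cells of a type and less RNA per cell cannot be told apart in any of these values.

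Among the cytoplasmic helicase receptors, Ifih1 (ENSMUSG00000026896), which senses long duplexes, held 524.8 and 472.6 in the control libraries and 801.6 and 961.1 in cKO. The groups did not overlap, as was so for 34.2% of all genes with cKO above and for 35.4% with cKO below. The log2 change was 0.82 (SE 0.090, limma adjusted p 2.38e-05), a 1.76-fold increase. Ddx58 (ENSMUSG00000040296), which senses duplex ends with a 5' triphosphate, went from 350.2 and 303.4 to 649.2 and 744.7. Both cKO libraries lay above both controls, by 1.09 on the log2 scale (SE 0.095, limma adjusted p 3.75e-06) or 2.13-fold. Dhx58 (ENSMUSG00000017830) encodes LGP2, a helicase of the same family without the signalling domains that assists MDA5. Its values of 179.8 and 150.3 in control and 146.5 and 155.4 in cKO overlapped (log2 change -0.12, SE 0.13, limma adjusted p 0.505), so no increase was shown for the third helicase of the family.

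Tlr3 (ENSMUSG00000031639), the endosomal receptor, stood at 147.6 and 167.3 in control and 264.0 and 254.8 in cKO. This was a 1.65-fold increase with no overlap (log2 change 0.72, SE 0.12, limma adjusted p 3.93e-04). Zbp1 (ENSMUSG00000027514), a sensor of left-handed Z-form duplexes that can start cell death, had few reads, 10 and 8 in the control libraries and 32 and 30 in cKO. Its normalized values were 10.4 and 7.56 against 31.1 and 31.1, a difference of 1.70 on the log2 scale (SE 0.34, limma adjusted p 0.00161). This was the largest fold of the 9 genes and the one resting on the fewest reads.

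Eif2ak2 (ENSMUSG00000024079), the gene of the translation-blocking kinase PKR, held 857.3 and 752.4 in control and 1421 and 1408 in cKO. The log2 change was 0.82 (SE 0.068, limma adjusted p 2.90e-06), or 1.76-fold, with the cKO libraries close to each other and well above both controls.

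The 2 genes of the relay changed little. Mavs (ENSMUSG00000037523), the mitochondrial adaptor, stood at 1195 and 1114 in control and at 1395 and 1283 in cKO, a difference of 0.21 on the log2 scale (SE 0.063, limma adjusted p 0.0170). Irf3 (ENSMUSG00000003184), the transcription factor at the end of the relay, held 1319 and 1318 in control and 1225 and 1187 in cKO. The cKO libraries lay below the controls, but the change of -0.13 did not pass the threshold (SE 0.055, limma adjusted p 0.0825). Adar (ENSMUSG00000027951), the editing enzyme, had 1716 and 1533 in control and 1933 and 1884 in cKO, a difference of 0.23 on the log2 scale (SE 0.060, limma adjusted p 0.00762).

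Ifih1, Ddx58, Tlr3 and Eif2ak2 were called in each of the 14 alternative analyses of this comparison. The calls of Mavs and Adar were less secure: without control library 2 their limma adjusted p was 0.166 and 0.142, and in a fit without the mean-variance trend it was 0.143 and 0.130. Irf3 was called lower in the fit over both control types with the kit as a covariate (log2 change -0.28, limma adjusted p 0.0496). Annotated genes overlap exons of Dhx58, Tlr3, Adar, Irf3 and Eif2ak2 on the other strand, and whether the counting used strand was not stated. Chrnb2, which overlaps Adar, had 58 to 70 reads in these libraries, against 1622 to 1992 for Adar. Bcl2l12, which overlaps Irf3, rose by 0.25 (SE 0.073, limma adjusted p 0.0154), the opposite direction to Irf3. Levels of the genes that overlap Dhx58, Tlr3 and Eif2ak2 are not reported here, and their part in these values was not tested.

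**Figure D1:**
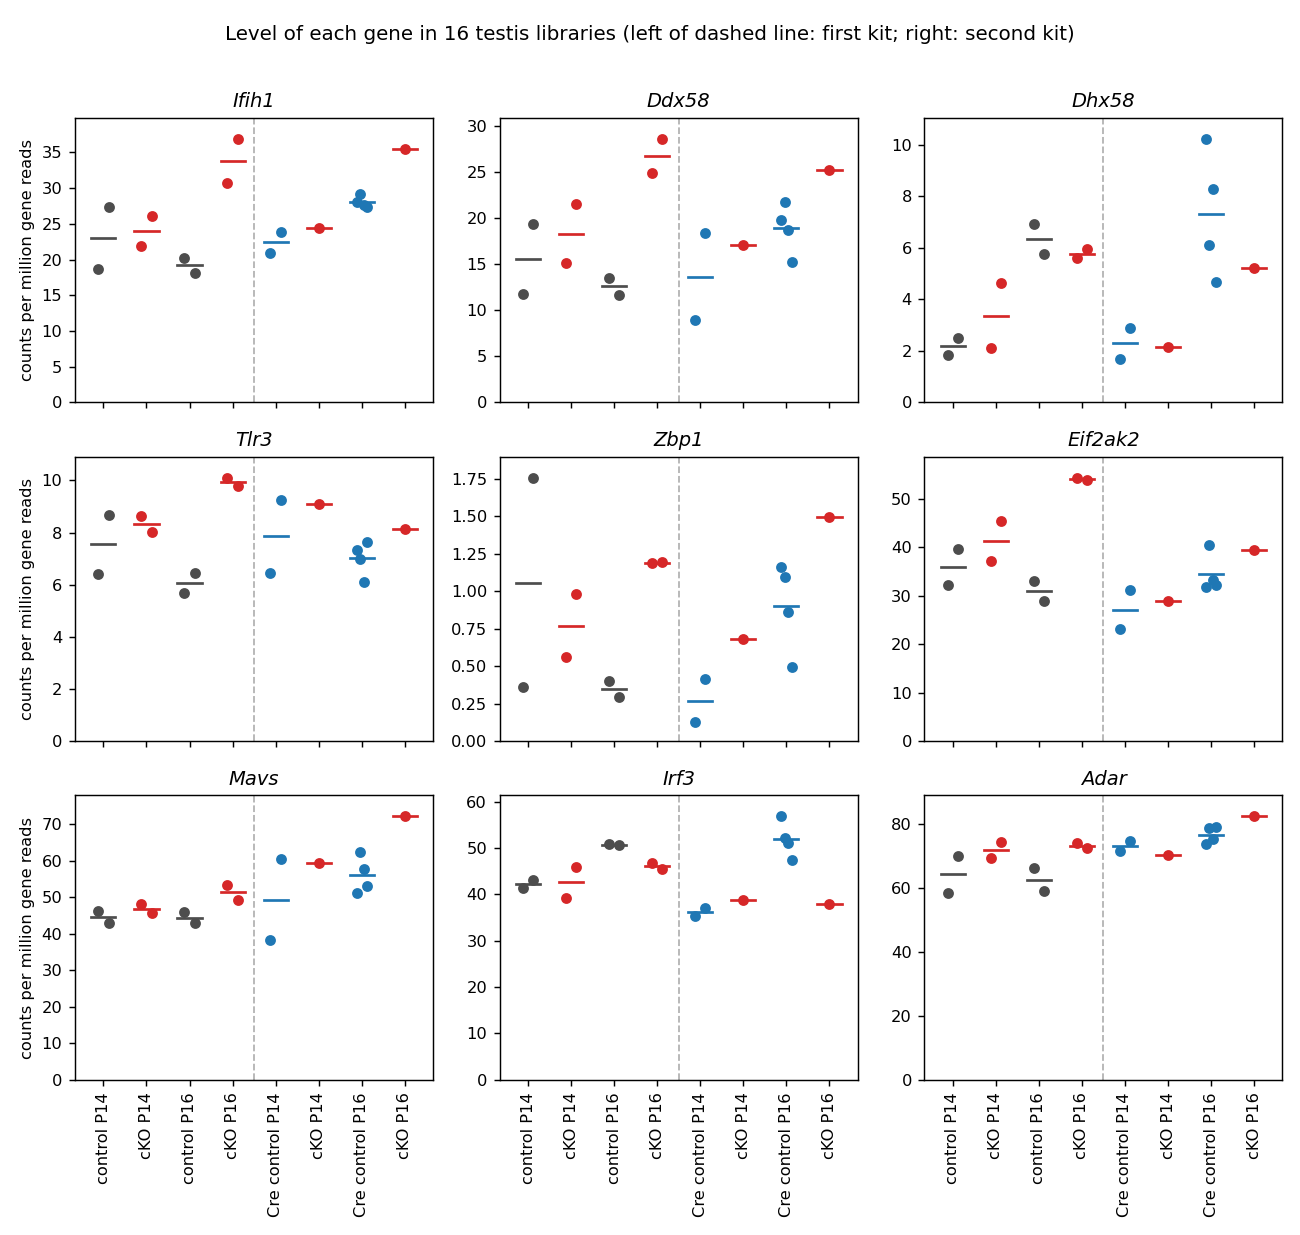
Level of the 9 genes in all 16 libraries, in CPM of gene reads (vertical axes from 0), with 1 point per library and a line at the group mean. Left of the dashed line are first-kit libraries, right of it second-kit libraries. At P16 in the first kit the cKO points lie above the control points for Ifih1, Ddx58, Tlr3, Zbp1, Eif2ak2, Mavs and Adar, and Irf3 lies below.

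The start regions of several of these genes carry the pattern to which interferon-activated factors bind. The pattern searched was GAAANNGAAA, the core of the interferon-stimulated response element, and its variant GAAANGAAA with 1 base between the repeats, on both strands and chosen after the windows were seen. RefSeq windows (GRCm38.p6, from 250 bases before to 50 after a start) were found for 7 of the 9 genes, and 4 of the 7 held one of the patterns: Ifih1, Ddx58, Eif2ak2 and Adar. Counted in the same way, by gene over any of its windows, 7.27% of 27025 symbols held one. Of all 32851 windows 6.27% held one, 3.44% the first pattern and 3.17% the second. The windows of Mavs, Irf3 and Tlr3 held neither, which says only that these letters are absent there. Dhx58 and Zbp1 had no window. In the interferon-induced gene list described below, 8 of 10 genes with a window held a pattern. A match is a description of the letters and not a measured binding site.

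The 4 windows with a match are shown, since 3 of them belong to genes with large P16 increases and the fourth to the editing enzyme. Each reads 5′ to 3′ on the gene's strand, with the matched pattern in capitals. They lie at chr2:62646206-62646505 (minus strand) for Ifih1, chr4:40239776-40240075 (minus strand) for Ddx58, chr17:78882523-78882822 (minus strand) for Eif2ak2 and chr3:89730468-89730767 (plus strand) for Adar.
Ifih1: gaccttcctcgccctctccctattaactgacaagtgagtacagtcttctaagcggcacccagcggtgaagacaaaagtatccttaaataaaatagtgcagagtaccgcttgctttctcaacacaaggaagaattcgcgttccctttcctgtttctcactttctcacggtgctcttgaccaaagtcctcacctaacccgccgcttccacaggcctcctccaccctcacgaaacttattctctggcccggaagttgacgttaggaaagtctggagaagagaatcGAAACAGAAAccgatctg
Ddx58: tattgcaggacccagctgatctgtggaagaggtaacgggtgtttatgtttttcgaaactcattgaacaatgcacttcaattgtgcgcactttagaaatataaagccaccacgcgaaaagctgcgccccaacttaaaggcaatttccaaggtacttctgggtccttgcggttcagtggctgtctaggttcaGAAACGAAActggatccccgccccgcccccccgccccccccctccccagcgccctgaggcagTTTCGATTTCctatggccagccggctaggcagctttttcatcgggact
Eif2ak2: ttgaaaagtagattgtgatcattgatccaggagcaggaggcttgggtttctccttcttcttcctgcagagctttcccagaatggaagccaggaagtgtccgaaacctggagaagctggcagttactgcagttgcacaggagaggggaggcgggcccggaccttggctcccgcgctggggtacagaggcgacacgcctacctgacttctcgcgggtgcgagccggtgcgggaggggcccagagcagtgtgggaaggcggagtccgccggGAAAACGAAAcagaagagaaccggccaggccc
Adar: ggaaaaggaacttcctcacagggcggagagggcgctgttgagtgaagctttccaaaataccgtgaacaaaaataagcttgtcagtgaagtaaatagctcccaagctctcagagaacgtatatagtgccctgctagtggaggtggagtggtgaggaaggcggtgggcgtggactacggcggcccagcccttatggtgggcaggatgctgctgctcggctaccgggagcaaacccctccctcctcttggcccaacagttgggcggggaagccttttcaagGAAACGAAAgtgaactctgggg
The Ifih1 match GAAACAGAAA starts 32 bases after the annotated start and the Eif2ak2 match GAAAACGAAA 18 bases after it. Ddx58 has one match upstream, GAAACGAAA at position -60, and another on the opposite strand that reads TTTCGATTTC here, 2 bases after the start. For Adar the match GAAACGAAA, 28 bases after the start, is in the window of one of 3 annotated starts, and the other windows had none. The tables count reads per gene, so which Adar start was used was not measured.

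The third cKO library and the 4 Cre controls, all of the second kit, share no library with the comparison above. At P16 this cKO library lay above every Cre control for 6 of the 9 genes (Ifih1, Ddx58, Zbp1, Mavs, Adar and Tlr3) and below every Cre control for Irf3. Among all genes tested, 19200 in number, 24% lay above and 30% below, and a single cKO library gives no test. Ifih1 stood at 693.5 against 554.0, 579.3, 557.4 and 539.7 in Cre control libraries 1 to 4, a log2 difference of 0.31. Ddx58 stood at 491.0 against 391.9, 432.1, 378.8 and 300.5, a difference of 0.40. For Ifih1 the gap to the highest Cre control exceeded the whole range of the Cre controls, while for Ddx58 it was smaller than that range.

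Zbp1 stood at 29.1 against 9.72 to 23.0, on 22 reads against 10 to 21. Mavs stood at 1407 against 1014 to 1237, a log2 difference of 0.34, which was larger than its first-kit change. Tlr3 (158.8 against 123.7 to 150.7) and Adar (1604 against 1454 to 1563) differed by 0.19 and 0.08. These gaps to the highest Cre control were small beside the spread of the Cre controls. Eif2ak2, so clearly higher in the first kit, was within the Cre controls, at 771.6 against 629.8 to 805.2, and Cre control library 2 exceeded the cKO library. Irf3 was the one gene below all of them, at 739.8 against 936.5 to 1124, a difference of -0.48. Dhx58 was within the Cre controls, at 101.9 against 92.4 to 202.3.

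Cre control library 1 was sequenced in the same run as the third cKO library, and Cre control libraries 2 to 4 in another. Within the shared run the log2 differences were 0.32 for Ifih1 and Ddx58, 0.47 for Mavs, 0.33 for Zbp1, 0.29 for Eif2ak2, 0.14 for Adar, 0.13 for Tlr3, -0.60 for Irf3 and -0.98 for Dhx58. The direction was the same within the run as over all 4 Cre controls for each of the 9 genes. Both differences share the third cKO library and Cre control library 1, so they are not independent.

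In the test of all 3 cKO libraries against the 4 Cre controls at P16, 0 of the 9 genes were called, against 9.07% of all genes tested, with 4.3% called higher. Here 2 of the 3 cKO libraries differ in kit from every control, so kit and genotype are partly mixed. Ifih1 changed by 0.35 (SE 0.094, limma adjusted p 0.0533), Ddx58 by 0.54 (SE 0.15, 0.0543), Eif2ak2 by 0.57 (SE 0.17, 0.0602) and Tlr3 by 0.47 (SE 0.16, 0.0732). These 4 passed an unadjusted p under 0.05. Ifih1 and the other helicase Ddx58 thus missed the threshold narrowly, and the call differed between tools. DESeq2 on the recovered reads called the 4 genes, with adjusted p of 0.00539, 0.00876, 0.0116 and 0.0369, and it called 11% of all genes higher. The edgeR test called Ifih1 higher and none of the others, against 5.35% of all genes. Neither tool took the kit into account. With the kit as a covariate in this comparison, the limma estimate rests on the third cKO library alone. It was then 0.18 for Eif2ak2, 0.19 for Tlr3 and 0.40 for Ddx58. Zbp1 (0.61), Mavs (0.10), Adar (0.05), Irf3 (-0.20) and Dhx58 (-0.26) had limma adjusted p between 0.218 and 0.592.

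When all 9 P16 libraries were fitted together with the kit as a covariate, the changes were 0.60 for Ifih1, 0.79 for Ddx58, 0.54 for Eif2ak2, 0.49 for Tlr3, 1.27 for Zbp1 and 0.28 for Mavs. These 6 genes were called higher, against 6.07% of genes, and Adar was not (0.17, limma adjusted p 0.109). This fit treats the control and the Cre control as equal apart from the kit.

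**Figure D2:**
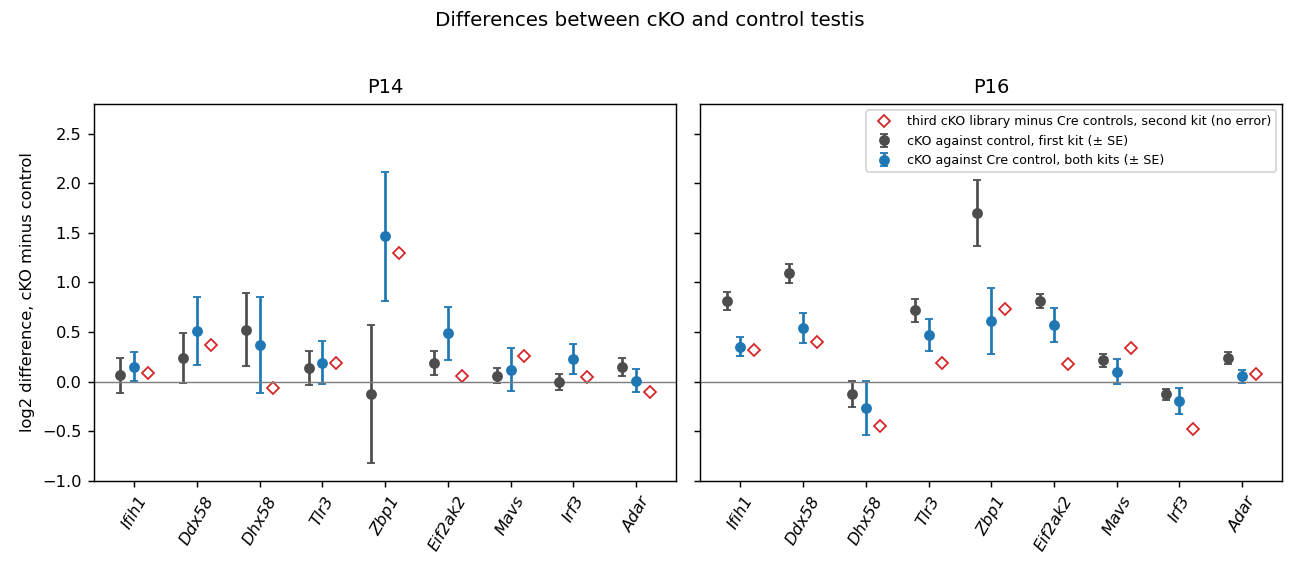
Log2 difference of cKO minus control for the 9 genes at P14 (left) and P16 (right). Filled points are limma estimates with their standard error against control (first kit) and against Cre control (both kits), and open diamonds are the third cKO library minus the Cre control mean within the second kit, with no error. At P16 Ifih1, Ddx58, Tlr3, Zbp1, Eif2ak2, Mavs and Adar are above 0 in all 3 measures, and Dhx58 and Irf3 are below 0.

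At P14, 2 days earlier, 0 of the 9 genes were called against control, and of 17270 genes 0.00579% were called. The groups overlapped for each of the 9 genes, while 15.1% of all genes had both cKO libraries above the controls and 14.5% had both below. Ifih1 held 451.1 and 658.9 in control and 532.1 and 611.0 in cKO (log2 change 0.06, SE 0.18). Ddx58 held 283.1 and 467.1 against 367.0 and 504.2 (0.24, SE 0.25), and Eif2ak2 776.2 and 955.8 against 901.1 and 1067 (0.19, SE 0.12). For Ifih1, Ddx58 and Eif2ak2 alike, control library 2 was well above control library 1. The split was widest for Zbp1, with 8 reads in control library 1 and 39 in control library 2, and 14 and 26 in cKO.

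The other 5 genes were Tlr3 (155.0 and 209.2 in control, 209.7 and 188.1 in cKO), Dhx58 (44.1 and 60.7, 51.5 and 108.6), Mavs (1116 and 1032, 1166 and 1073), Adar (1409 and 1685, 1684 and 1741) and Irf3 (997.9 and 1039, 952.5 and 1080). Their log2 changes ran from -0.01 for Irf3 to 0.52 for Dhx58, each with limma adjusted p of 1.00. The spread between libraries of the same group limits what this comparison can show, since the standard errors at P14 were larger than at P16 for each of the 9 genes. Leaving out control library 2 raised the median change of the 9 genes to 0.34, and leaving out control library 1 brought it to -0.04. With either library left out, 0 were called.

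Against the Cre controls at P14, 0 of the 9 genes and 0% of all 18196 genes were called by limma, and none of the 9 passed an unadjusted p under 0.05. DESeq2 called 5 of all the genes and edgeR 0, none of them among the 9. The largest changes were in Zbp1 (1.46, SE 0.65), Ddx58 (0.51, SE 0.34) and Eif2ak2 (0.49, SE 0.27). In the second kit alone, the third cKO library had 301.3 for Ddx58, between the Cre control values of 164.8 and 328.7, and 508.1 for Eif2ak2, between 427.5 and 557.7. The third cKO library was above both Cre controls for Ifih1, Zbp1 and Irf3 and below both for Adar, against 26.9% and 33.3% of all genes. Of these, Zbp1 rested on 10 reads in cKO against 2 and 6.

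An interaction of genotype and stage was tested over the 8 first-kit libraries. Eif2ak2 was called, with an effect larger at P16 by 0.64 on the log2 scale (SE 0.16, limma adjusted p 0.0383), against 7.39% of 18581 genes called and 2.9% called higher. This call was lost in 7 of 14 alternatives, among them leaving out control library 2 of P14 (0.108), either control library of P16 (0.0847 and 0.155) or either cKO library of P16 (0.140 and 0.102). Ifih1 (0.77, SE 0.23, limma adjusted p 0.0724), Ddx58 (0.86, SE 0.31, 0.115), Tlr3 (0.59, SE 0.21, 0.117) and Zbp1 (1.83, SE 0.84, 0.210) had differences of like or larger size that were not called. Those of Mavs (0.17), Adar (0.10), Irf3 (-0.11) and Dhx58 (-0.63) were not called either. For 8 of the 9 genes, a difference between the stages in the cKO effect was therefore not shown.

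The levels themselves moved with age in different ways. In control testis Dhx58 rose from 1.83 and 2.52 CPM (counts scaled to the gene reads of the library) at P14 to 6.92 and 5.78 at P16, by 1.54 on the log2 scale (SE 0.30, limma adjusted p 0.00602). Irf3 rose from 41.4 and 43.2 to 50.8 and 50.6 (0.26, SE 0.067, limma adjusted p 0.0214). These were 2 of the 9 genes, against 20% of all genes called and 13.3% called higher. In the Cre controls the same genes were called over the same interval, Dhx58 by 1.66 (SE 0.33, limma adjusted p 0.00939) and Irf3 by 0.53 (SE 0.11, 0.0113), against 11.8% of all genes called and 9.06% called higher. Dhx58 had 1.68 and 2.90 CPM in the P14 Cre controls and 4.68 to 10.2 in the P16 ones. These calls rest on few libraries. In control, that of Dhx58 held in 11 of 14 alternatives and was lost without control library 1 of P14 (limma adjusted p 0.0534) or of P16 (0.0634), and that of Irf3 held in 8 of 14 and was lost with any one control library left out (0.0587 to 0.121). In the Cre controls each held in 10 of 12 and was lost without Cre control library 1 of P14 (0.136 for Dhx58 and 0.114 for Irf3). The rise of Dhx58 with age was thus called in libraries of both kits, though the P14 Cre controls and 3 of the 4 P16 ones were sequenced in different runs. Exons of Dhx58 and Irf3 overlap Dhx58os and Bcl2l12 on the other strand, and whether the counting used strand was not stated. The part of these overlapping genes in the rises was not tested.

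In cKO testis of the first kit, Dhx58 (0.91, SE 0.30, limma adjusted p 0.0458), Ifih1 (0.53, SE 0.16, 0.0342) and Eif2ak2 (0.44, SE 0.11, 0.0148) rose from P14 to P16, against 29.8% of all genes called and 16% called higher. Eif2ak2 went from 37.1 and 45.4 CPM to 54.4 and 54.0. In the control libraries it went from 32.2 and 39.7 to 33.0 and 28.9, a change of -0.21 that was not called (limma adjusted p 0.220). Ddx58 showed the same contrast of values, 15.1 and 21.5 to 24.8 and 28.6 in cKO (0.60, limma adjusted p 0.0631) and 11.7 and 19.4 to 13.5 and 11.7 in control (-0.26, 0.432). Irf3, called in both control types, changed by 0.16 in cKO (limma adjusted p 0.109).

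The rises in cKO depended on single libraries too. The call of Dhx58 held in 4 of 14 alternatives, and without cKO library 1 of P14 its change was 0.36 (limma adjusted p 0.262). That of Ifih1 held in 7 of 14 and that of Eif2ak2 in 9 of 14, and both were lost without cKO library 1 of P14 (0.122 and 0.0807) or either cKO library of P16 (0.0547 and 0.220 for Ifih1, 0.0860 and 0.0798 for Eif2ak2). Ifih1 was also lost without either control library of P16 (0.0540 and 0.0588), which enter the shared estimate of the spread. The Cre controls had changes over the same interval that were nearer to those of cKO than to those of control: 0.56 for Ddx58 (limma adjusted p 0.182), 0.37 for Eif2ak2 (0.148) and 0.34 for Ifih1 (0.0881), none called, each with an unadjusted p under 0.05. These too depended on single P14 libraries. Without Cre control library 1 of P14 they were 0.0533, 0.16 and 0.26, and without library 2 they were 1.07, 0.57 and 0.41. In control, without control library 2 of P14, they were 0.0914, -0.0622 and 0.0312. The median over the 9 genes was 0.37 in the Cre controls (8 of 9 above 0), 0.44 in cKO (9 of 9) and -0.21 in control (2 of 9). Whether these stage changes differ between cKO and Cre control was not tested.

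Per length, the relay and editing genes were the abundant ones and the receptors were scarce. In the P16 control libraries the mean level in RPKM (CPM per kilobase of merged exons) was 14.7 for Irf3, 13.3 for Mavs, 7.70 for Adar, 6.06 for Eif2ak2, 2.35 for Ifih1, 1.94 for Dhx58, 1.78 for Ddx58, 1.16 for Tlr3 and 0.0979 for Zbp1. Of the neighbours in this order, Dhx58 and Ddx58 overlapped between their 2 libraries and the others did not. Among the P16 Cre controls the order began with Mavs (16.8 ± 1.49, SD, n = 4) and Irf3 (15.1 ± 1.13, SD, n = 4), which overlapped. It then ran through Adar, Eif2ak2 and Ifih1, which did not overlap their neighbours, to Ddx58 and Dhx58, which overlapped, and Tlr3, which overlapped Dhx58. Zbp1 was again last, at 0.256 ± 0.0858 (SD, n = 4). In the P16 cKO libraries of both kits, Eif2ak2 (9.64 ± 1.65, SD, n = 3) overlapped Adar (9.38 ± 0.656, SD, n = 3), and Ifih1 (4.21 ± 0.399, SD, n = 3) overlapped Ddx58 (3.71 ± 0.292, SD, n = 3). The order of Eif2ak2 and Adar differed between the cKO libraries of the 2 kits, which also differ in sequencing run. Eif2ak2 was above Adar in the first-kit libraries (10.63 and 10.56 against 9.11 and 8.90). It was below Adar in the single second-kit cKO library (7.73 against 10.13). Exon lengths came from another annotation than the authors', which can shift the order of genes with close levels.

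**Figure D3:**
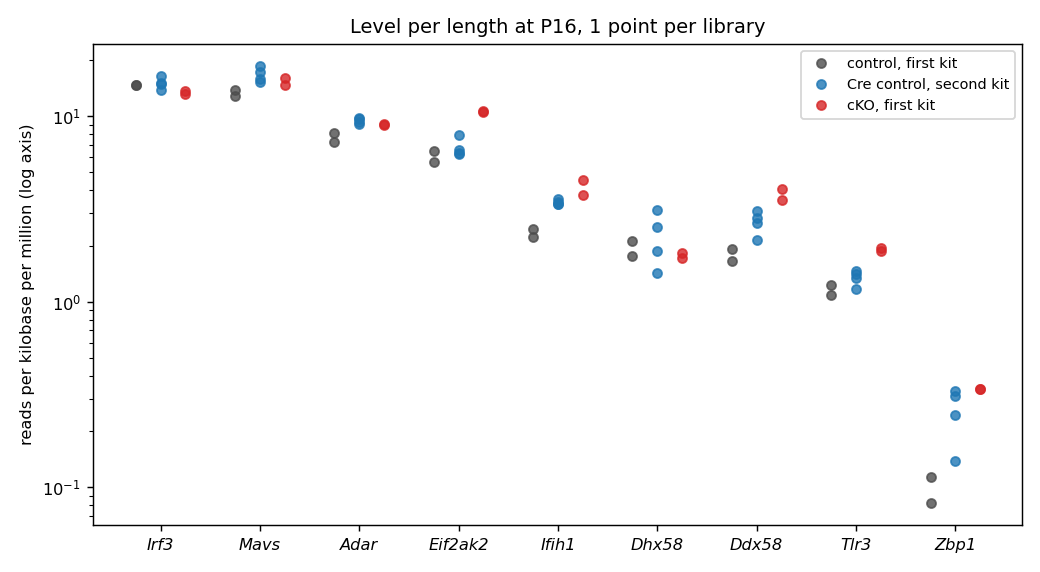
Level per length of the 9 genes at P16 in RPKM (log axis), 1 point per library, ordered by the control mean. Irf3 and Mavs are highest and Zbp1 lowest in each group shown, and the cKO points of Eif2ak2, Ifih1, Ddx58 and Tlr3 lie above the control points of the first kit, the kit of the cKO points shown.

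The genes that act with these 9 were read from lists chosen by function, with earlier results of these data known. Of 20 genes of signalling downstream of the sensors, 9 rose and 1 fell at P16 against control, with a median of 0.26. Of all genes tested, 18.6% were called higher and 19.9% lower. Large changes were in Irf7 (2.13, SE 0.18, limma adjusted p 3.52e-06), the interferon-inducible partner of Irf3, and in Stat2 (0.79) and Irf9 (0.74), which carry the interferon signal to the nucleus. Irf7 stood at 62.4 and 99.8 in control and 324.1 and 377.0 in cKO. The gene that fell was Tbk1 (-0.26, SE 0.055, limma adjusted p 0.00274), the kinase that activates IRF3; it lies outside the rule for named genes and was picked after its value was seen.

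Of 20 other proteins that bind or cleave double-stranded RNA, 19 were tested, and 10 rose and 5 fell. The share of all genes called was 18.6% higher and 19.9% lower. The largest increases were in the 2'-5'-oligoadenylate synthetase family, which activates RNase L: Oas3 (2.67), Oas2 (2.17), Oasl1 (1.78) and Oas1a (1.47). Oas3 had 2 and 5 reads in the control libraries and 22 and 30 in cKO. Those that fell included Tarbp2 (-0.35), Stau1 (-0.26), Dhx15 (-0.14) and Ilf2 (-0.12), which encode constitutive RNA-binding proteins and were named after their values were seen.

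None of the other genes with an adenosine deaminase domain rose. Of 3 tested, Adarb1 (ADAR2, the second active RNA editor) fell from 1065 and 1192 to 604.6 and 647.3, a change of -0.85 (SE 0.072, limma adjusted p 3.23e-06). Adad1, a germ cell gene without known editing activity, changed by -0.21 (SE 0.051, limma adjusted p 0.00666), and Adad2 by 0.01 (limma adjusted p 0.888). In the second kit at P16 these 3 genes were below the Cre control mean in the third cKO library. Of the 3, 2 were below every Cre control, as were 30% of all genes tested. Adarb2 was at 0 there.

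Among the other genes of the eIF2-alpha pathway, 7 were tested, 0 rose and 2 fell, Ppp1r15a (-0.41) and Eif2s1 (-0.21). Over all genes, 18.6% were called higher and 19.9% lower. The sister kinase genes Eif2ak1 (-0.04), Eif2ak3 (-0.04) and Eif2ak4 (0.10) had limma adjusted p of 0.613, 0.719 and 0.226. Eif2ak2 was thus the called one of 4 eIF2-alpha kinase genes in this comparison.

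The 16 interferon-induced genes of a further list, chosen in the same way, rose without exception at P16 against control. There 18.6% of all genes were called higher. Their median log2 change was 1.90. Ifit1 (2.54), Ifit3 (2.45), Ifit3b (2.42) and Cxcl10 (2.21) changed most; Ifit3 and Ifit3b are near-identical paralogs among which reads are hard to divide. Their summed value was 1378 and 1272 in control and 3507 and 3916 in cKO. The count was 12 of 16 in the fit over both kits, against 6.07% of all genes called higher. With DESeq2 it was 13 of 16, against 2302 of 17986 genes called higher. Against the Cre controls 4 of the 16 were called higher, with a median of 0.93, against 4.3% of all genes called higher. Within the second kit the summed value was 1743, 1988, 1695 and 1229 in Cre control libraries 1 to 4 and 2139 in the third cKO library, and the difference from the Cre control mean was above 0 for 16 of 16 genes. At P14 the sum was 1303 and 2704 in control libraries 1 and 2 and 1867 and 2914 in cKO, the same ordering of control libraries as for Ifih1, Ddx58, Eif2ak2 and Zbp1. None of 15 tested genes was called at P14, and 1 passed an unadjusted p under 0.05.

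Transcripts of 5 interferon genes were not detected at this depth. Ifnb1, Ifna1, Ifna2, Ifna4 and Ifnl3 were listed at 0 reads in all libraries of both P16 tables, where a count of 0 allows up to 3 reads per library, or 0.207 CPM in the shallowest library of the series. Of 13 interferon and receptor genes, 6 were tested, and the receptor subunits Il10rb (0.54), Ifnar2 (0.39), Ifngr2 (0.25) and Ifngr1 (0.18) rose, against 18.6% of all genes.

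**Figure D4:**
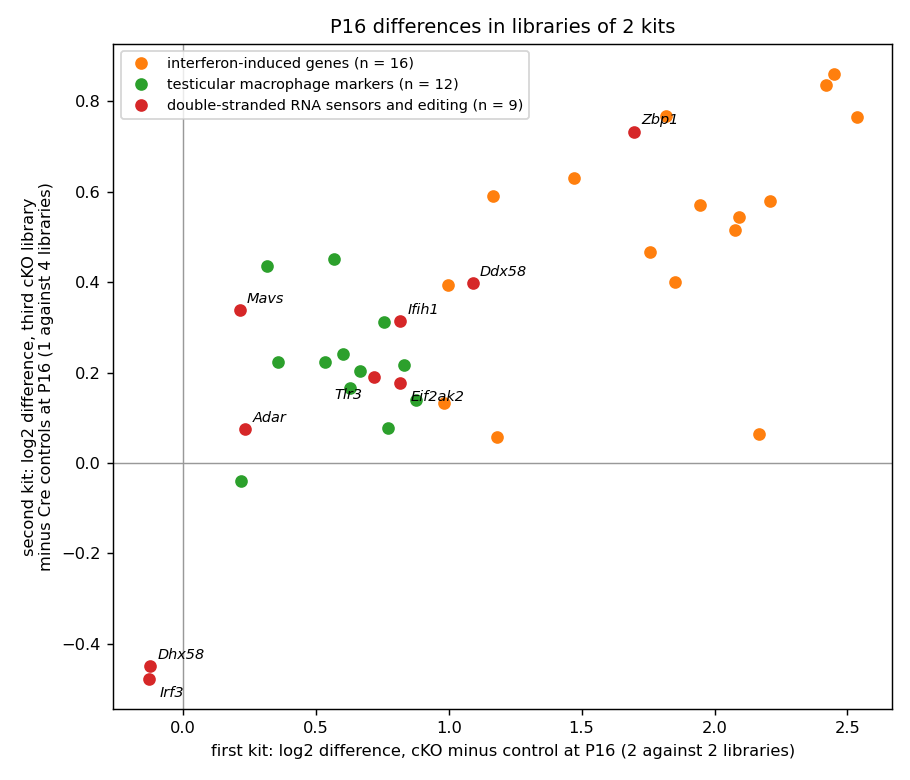
Log2 difference at P16 of cKO minus control in the first kit (horizontal axis, 2 against 2 libraries) and of the third cKO library minus the Cre control mean in the second kit (vertical axis, 1 against 4 libraries), 1 point per gene. All 16 interferon-induced genes lie above 0 on both axes, as do 11 of 12 macrophage markers and 7 of the 9 genes followed here. Dhx58 and Irf3 lie below 0 on both.

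Markers of testicular macrophages moved in the same direction. Of 12 markers, 9 rose and 0 fell at P16 against control, with a median of 0.62, against 18.6% and 19.9% of all genes. Their summed value was 3692 and 3824 in control and 5366 and 5253 in cKO. In the second kit it was 2917 to 3707 in the Cre controls and 3978 in the third cKO library. At P14 the sums overlapped (5538 and 5450 in control, 5600 and 4449 in cKO) and none of the 12 was called. From P14 to P16 the markers fell in control testis, with a median of -0.80. There 7 of 12 were called lower, against 20% of all genes called in either direction. In cKO 0 were called, against 29.8% of all genes, and the median was 0.04. In the Cre controls 1 was called lower, against 11.8% of all genes called in either direction, and the median was -0.02. None of the T cell markers rose (2 tested, 1 lower, summed value 100.2 to 103.9 in control and 88.0 to 88.3 in cKO). B cell and neutrophil markers were too low to test, and the neutrophil marker Ly6g was at 0 in all libraries.

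Markers of other cells were read at P16 against control beside the 18.6% of all genes called higher and 19.9% called lower. Of the Sertoli cell markers 5 of 8 rose, of the Leydig cell markers 2 of 5 tested, of the endothelial markers 2 of 4 and of the peritubular myoid markers 1 of 4. Of the spermatogonium markers 5 of 6 fell, and of the spermatocyte markers 6 of 9 fell and 1 rose. The part of any of these cell types in the values of Ifih1, Ddx58, Tlr3, Zbp1, Eif2ak2, Mavs and Adar was not tested.

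The genes whose pattern was most like that of a sensor were sought by Pearson r of log2 CPM over the 8 first-kit libraries, among 18581 genes. These r values are the highest of many and come from libraries that share the same genotype contrast. For Ddx58 the closest were Irf7 (r = 0.990), Ifih1 (0.985) and Rtp4 (0.984). Over the 8 second-kit libraries the same pairs had r of 0.971, 0.843 and 0.90. For Eif2ak2 they were Lgals3bp (0.986, and 0.914 in the second kit), Ccser2 (0.979, and 0.137) and Ifi27 (0.979, and 0.941). Those of Ifih1 were Ddx58, Tm6sf1 (0.978, and 0.636) and 9530026P05Rik (0.974, and -0.17). For Adar they were Epsti1 (0.961, and 0.497), Brd1 (0.950, and -0.02) and Gm43062 (0.947, and -0.59). The likeness of Ddx58 to Irf7 and Rtp4 and of Eif2ak2 to Lgals3bp and Ifi27 was thus high in both kits, and that of Adar to its closest genes was not.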

How the data were processed

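The authors deposited normalized counts (a signal in which gene reads are scaled by library, within each of 4 tables, per the file names and values). Per the submitters' processing notes, Trim Galore, STAR, HTSeq, DESeq2 and GRCm39 (mm39) were used; roles, versions, annotation and strand setting are not given in the sources used here. Whole reads were recovered for 100% of values above 0 (tolerance 0.01). Names and exon lengths came from GENCODE M21 (52081 of 55414 IDs named). The main test was limma 3.58.1 (R 4.3.3, eBayes with trend) on log2(value + 1), for genes with at least 10 in at least 2 libraries, with Benjamini-Hochberg adjustment; folds of low genes are understated on this scale. Stage and interaction fits used limma on log2 CPM of recovered reads (TMM, prior count 1). Alternatives were edgeR 4.0.16, DESeq2 1.42.0, other scalings, pseudocounts and filters, no trend, kit covariates, the replicate block and each library left out. Scripts were tested on simulated data. Named are the 9 genes, Ythdc2, up to 4 called genes per pathway list with the largest P16 change, and the 3 genes most like Ifih1, Ddx58, Eif2ak2 and Adar. The genes and lists were chosen with earlier results of these data known. Ddit3 was left out, since 2 IDs share its name. Genes of the lists that fall under the naming rule and are not named are not reported here.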

Additional observations from a re-analysis of the deposited data

Results flagged for a closer look

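Among the 9 genes, Eif2ak2 had a cKO effect that differed between P14 and P16 by a test of the difference itself, by 0.64 on the log2 scale (SE 0.16, limma adjusted p 0.0383, first kit, 2 libraries per group). Of all 18581 genes tested, 7.39% were called and 2.9% called higher, and the call of Eif2ak2 was lost in 7 of 14 alternatives. Both first-kit P16 cKO libraries, at 54.4 and 54.0 CPM, were above the highest of the P14 libraries, at 45.4. The third P16 cKO library, of the second kit and outside this test, was below it, at 39.5. The effect on the deleted gene Ythdc2 also differed: on the log2 scale, P16 minus P14 was -0.72 (limma adjusted p 0.00822, SE 0.11). Dixon's criterion, which flags about 1 in 20 groups by chance, was limited to groups of 4 to 10 libraries. Among the groups of genotype and stage, only the P16 Cre controls held 4 libraries, and none held more. In the 10 sets of values tested, no library was set apart from the others. Smaller groups could not be screened.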

How the results depend on the processing

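Each comparison was rerun under the alternatives of processing, and no called change of the 9 genes turned direction in any of them. Of the 9 genes, 5 to 7 were called higher at P16 against control under every alternative run, and 0 to 4 against Cre control. Of all genes, those called higher against control ran from 741 of 17986 without trend to 3992 of 17986 with the replicate block. Against Cre control they ran from 0 of 19200 with the kit as a covariate to 3843 of 19046 without cKO library 3. In the latter fit kit and genotype cannot be told apart. With 2 to 4 libraries per group, single libraries decide many values, above all at P14. The number of genes called against control at P14 was 1 and became 6 with DESeq2, 0 without trend (733 at an unadjusted p under 0.05), 0 without a filter (1228), 5 with the replicate block, and 0 to 11 with a library left out. At P16 it was 6939 and became 2701 over both control types with the kit as a covariate, 1806 without trend, and 4591 to 7045 with a library left out. Against the Cre controls at P14 it was 0 (705 unadjusted) and became 5 with DESeq2, 6966 with the replicate block, and 0 to 6256 with a library left out, the highest without cKO library 3, where kit and genotype cannot be told apart. At P16 it was 1741 and became 4140 with DESeq2, 32 without trend, 1 with the kit as a covariate, 917 without a filter, 3277 with a pseudocount of 10, 0 with the replicate block (5790 unadjusted), and 0 to 9427 with a library left out, again highest without cKO library 3. For the interaction it was 1373 and became 135 without trend, 727 without a filter, 2228 with the replicate block, and 284 to 3199 with a library left out. The stage comparison gave 3714 in control (2166 without trend, 1640 to 4737 with a library left out), 5533 in cKO (3445 to 5451) and 2223 in Cre control (903 without trend, 551 to 2777). The causes were not tested.

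Directions that turned belong to changes that were not called. At P14 against control, Zbp1 became 0.44 and Irf3 0.0105 over both control types with the kit, and Irf3 0.0054 under TMM. With the kit as a covariate at P14, Dhx58 became -0.0677 and Adar -0.10 against Cre control. Without a filter the stage change of Mavs in control became 0.0058. With a library left out, the P14 changes ran from -0.21 to 0.34 for Ifih1, -0.12 to 0.60 for Ddx58, -0.0084 to 1.05 for Dhx58, -0.00044 to 0.12 for Mavs, -1.21 to 0.96 for Zbp1, -0.0742 to 0.36 for Tlr3 and -0.10 to 0.0846 for Irf3, and that of Dhx58 at P16 from -0.25 to 0.0056. Against Cre control at P14 they ran from -0.0076 to 0.73 for Dhx58, -0.18 to 0.42 for Mavs, -0.0323 to 0.0660 for Adar and -0.0362 to 0.42 for Tlr3, and that of Mavs at P16 from -0.0166 to 0.19. The interaction of Adar ran from -0.0273 to 0.22. The stage changes in control ran from -0.51 to 0.0312 for Ifih1, -0.62 to 0.0914 for Ddx58, -0.0636 to 0.0582 for Mavs and -0.16 to 0.0912 for Adar, and in Cre control from -0.0812 to 0.54 for Mavs and -0.37 to 0.11 for Tlr3.

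Deviations of same-numbered libraries correlated at 0.203 at P14 and 0.0798 at P16 against control, with 2 pairs each. With 2 libraries per group, differently numbered libraries must have the same r with the opposite sign. Whether the replicate numbers pair the libraries was therefore not settled. With the replicate block Irf3 was called lower at P16 against control (limma adjusted p 0.0495), as were 4208 of 17986 genes. Against Cre control at P14 the block takes up cKO library 3. First-kit cKO libraries are then set against second-kit Cre controls, so kit and genotype cannot be told apart. In that fit Ddx58 (limma adjusted p 0.0306), Zbp1 (0.0247) and Eif2ak2 (0.00164) were called higher, as were 2876 of 18196 genes. Genes with few reads, such as Zbp1, are limited by depth.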
